A study of Mus musculus with 8 samples.

Results

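The left ventricle of mdx sln+/- mice was compared with that of mdx mice, over 6 of the 8 libraries of the series (3 mdx sln+/- and 3 mdx), chosen by the genotype given for each library. The mdx mice carry a mutation of the dystrophin gene Dmd in every cell, and mdx sln+/- mice carry the same mutation and have, in addition, lost 1 of the 2 copies of the sarcolipin gene Sln. Both groups, and the 2 wild-type (WT) libraries that served as a reference and shared the estimate of the spread, came from mice of 6 months on a C57 background, and the labels describe no treatment. The titles of the mdx sln+/- libraries begin with TRT2 and their source names with Treat2, names that the labels do not explain, so the groups are taken from the genotype alone. The question behind the comparison is what the loss of 1 Sln copy does to gene expression in the dystrophic heart. The labels do not give sex and do not say which libraries are separate animals, so p-values measure only the spread between these libraries.

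In a heart muscle cell, the pump SERCA returns calcium to the sarcoplasmic reticulum after each beat, and small membrane proteins, sarcolipin and phospholamban among them, lower its activity. Sarcolipin is best known from atrial and slow skeletal muscle, and dystrophic muscle is known for disturbed calcium handling. Dystrophin ties the contractile apparatus to the cell membrane, and its loss leads with age to membrane damage, inflammation, fibrosis and cardiomyopathy.

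The deposited values were log2 levels per transcript of 14578 genes, which were summed to gene levels and given as log2(value + 1), and 13783 genes passed a filter on low values. A difference is always mdx sln+/- minus mdx on this log2 scale, which understates the differences of low genes, and each error after ± is a standard error taken from limma. Library sums ranged from 780262 to 924253, lowest in mdx 1, but these are normalized values without counts, so they do not give the depth. Major genes of heart muscle were present at a high level in all 6 libraries, with Myh6 (alpha myosin heavy chain) at 14.25 to 14.49 and Atp2a2 (SERCA2) at 13.01 to 13.40. Library mdx 1 stood apart from its group. The SD of its log2 differences over 8867 genes was 0.210 to mdx 2 and 0.245 to mdx 3, against 0.180 between mdx 2 and mdx 3 and 0.124 to 0.203 among the mdx sln+/- libraries. To mdx sln+/- 1, 2 and 3 it was 0.248, 0.214 and 0.289 for mdx 1 and 0.164, 0.226 and 0.155 for mdx 2. For mdx 3 it was 0.168, 0.158 and 0.227. Some libraries thus lay nearer to libraries of the other group than to those of their own, and the 6 did not part by group. Y-linked genes varied widely between libraries, and Eif2s3y was at 5.91, 4.01 and 5.79 in the mdx libraries 1, 2 and 3, against 3.29, 4.14 and 1.31 in the 3 mdx sln+/- libraries. A contrast removed before deposit, described under the processing, ties the mean of mdx 2 and mdx sln+/- 2 to that of the others. Neither these levels nor the distances above are therefore as measured, and the Eif2s3y level used as a term below carries the same tie. The X-linked gene Kdm6a, one of those that escape X inactivation, was at 3.21, 3.48 and 3.22 and at 3.68, 3.70 and 4.22, without overlap. Whether a different mix of sexes in the libraries bears on the differences below was not tested beyond a fit with the Eif2s3y level as a further term. That fit moved Kdm6a from 0.56 to 0.20, and of the 126 genes named in the text it moved 32 by over 1.5 times in either direction, several of which are given below. Leaving out 1 library in turn moved 48 of the 126 by over 1.5 times.

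Dmd itself was at 4.30, 4.32 and 4.22 in mdx, and mdx sln+/- had 4.09, 4.10 and 4.25, against 6.60 and 6.98 in the WT libraries. All 6 libraries thus lay below both WT libraries, and Dmd differed by -0.14 ± 0.11 between the groups compared, which overlapped. Sln was not analysed here, and the lost copy was therefore not checked by its expression.

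No gene passed limma with Benjamini-Hochberg adjustment at 0.05 (0% of the genes tested), and the smallest adjusted p was 0.477. At an unadjusted p under 0.05, 799 genes (5.8%) were higher in mdx sln+/- and 387 (2.81%) lower, together 1186 genes (8.6%). The larger side turned with the scaling: 67.4% of these genes were higher with the values as deposited, 45.3% with median-ratio scaling (482 higher and 581 lower) and 51.6% with upper-quartile scaling (538 and 505). Without mdx 1 the counts were 638 higher and 317 lower, and without mdx sln+/- 1 they were 267 and 145. The groups did not overlap in 2312 genes (16.8%) where every mdx sln+/- library was the higher and in 1102 genes (8%) where every one was the lower. The contrast removed before deposit, described under the processing, ties the 6 values of a gene to each other. Counts of genes without overlap make no allowance for it, here and below. Over all 13783 tested genes 8313 differences were positive and 5470 negative. The median difference over all tested genes was 0.031, or -0.002 after median-ratio scaling, and 5% of genes lay under -0.23 and 5% above 0.26. The counts above are read below as the background for each gene group, and every gene named from here on has an adjusted p of at least 0.477 in limma, so its values are a description and not a call.

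Differences over 2-fold were rare. Among the 13783 genes 2 were higher by over 2-fold (0.0145%) and 9 were lower (0.0653%), and of these 2 (0.0145%) and 5 (0.0363%) had no overlap between the groups. The higher ones were Irs2, an adaptor of the insulin receptor, and Tmem100, a membrane protein of the endothelium. The lower ones were Serpina3n, C7, Prg4, Hp and Cilp and the Y-linked genes Eif2s3y, Ddx3y, Uty and Kdm5d, named because the count is small. Hp, haptoglobin, was at 2.64, 2.54 and 1.66 in mdx, and mdx sln+/- had 1.03, 0.75 and 1.26, without overlap (-1.27 ± 0.35). Tmem100 was at 2.09, 2.53 and 2.14 against 3.83, 3.26 and 3.51 (1.28 ± 0.64), again without overlap, but its WT libraries, at 2.68 and 5.56, spread more widely than either group, and it was at 0.33 with the Eif2s3y level as a term. Cilp, a matrix protein of cartilage and stressed heart, was at 6.15, 4.72 and 4.10 against 3.73, 4.20 and 3.82 (-1.07 ± 0.54), and mdx 1 alone stood well above the rest (-0.41 without it).

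**Figure D1:**
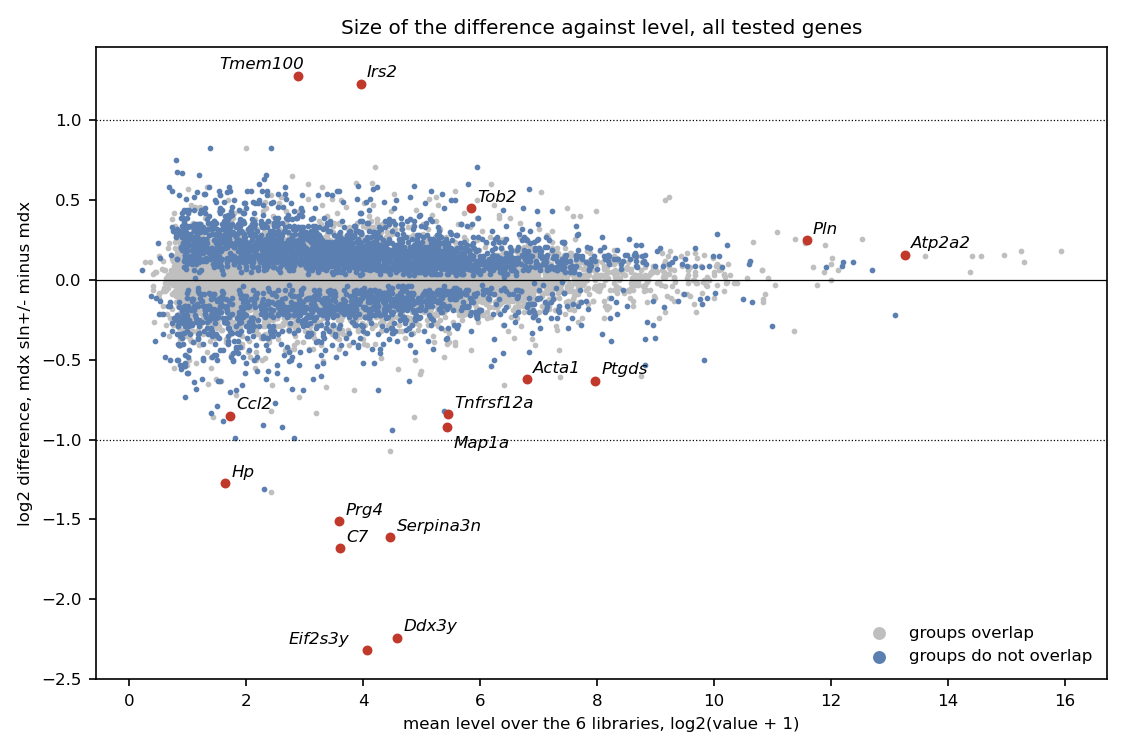
Log2 difference (mdx sln+/- minus mdx, y axis) against the mean level over the 6 libraries (x axis, log2(value + 1)) for 13783 tested genes. Each point is a gene, blue where the 3 libraries of one group all lie beyond the 3 of the other, red for labelled genes, and dotted lines mark 2-fold. 2 genes lie above the upper dotted line and 9 below the lower one.

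Of the genes named by the rule given under the processing, Ptgds, Ccl2, Tob2, Tmem86a and Ccl7 had the smallest unadjusted p-values. Ptgds, which makes prostaglandin D2 and lies on chromosome 2 from 25466709 to 25470046 (mm10, positions of the measured transcripts), was at 8.37, 8.18 and 8.28 in mdx, and mdx sln+/- had 7.68, 7.77 and 7.51. Every mdx sln+/- library was below every mdx library, and the difference was -0.63 ± 0.09 (limma, unadjusted p = 0.000134). WT stood higher than both, at 9.06 and 9.10. Tob2, an antiproliferative protein that acts on mRNA deadenylation, was at 5.54, 5.60 and 5.71 in mdx, and mdx sln+/- had 6.02, 6.09 and 6.10 (difference 0.45 ± 0.07). Its mdx sln+/- levels lay just under the 6.17 and 6.18 of WT. Tmem86a, a lysoplasmalogenase, was at 4.38, 4.36 and 4.36 and then at 4.67, 4.72 and 4.75 (difference 0.35 ± 0.06), with WT at 4.69 and 4.68. Leaving out each library in turn kept Ptgds between -0.69 and -0.55 and Tob2 between 0.41 and 0.51.

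Others on the higher side included genes of signalling and metabolism. Irs2 was at 3.02, 3.62 and 3.37 in mdx, and mdx sln+/- had 4.36, 4.29 and 5.07, a 2.35-fold difference (1.23 ± 0.27). All 3 mdx sln+/- libraries exceeded all mdx and both WT libraries (3.25 and 3.88), and the difference was 0.84 with the Eif2s3y level as a term. Pcx, the mitochondrial pyruvate carboxylase, was higher by 0.41 ± 0.08, Whrn, a scaffold protein, by 0.57 ± 0.10 and Tcp11l2 by 0.57 ± 0.10. Dhrs3, which reduces retinaldehyde, was higher by 0.60 ± 0.16 and the salt-inducible kinase gene Sik1 by 0.59 ± 0.17 (0.37 without mdx sln+/- 3). Apold1, an endothelial gene, was higher by 0.59 ± 0.22, but by 0.34 without mdx 3. Fam81a was higher by 0.58 ± 0.24, and by 0.88 with the Eif2s3y level as a term. Smaller differences were those of Ano10 (0.38 ± 0.07), Arhgef3 (0.29 ± 0.06) and Fam213a (0.34 ± 0.07), named by a rule that required no overlap.

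On the lower side, Serpina3n, a secreted serine protease inhibitor, was at 5.94, 4.89 and 4.97 in mdx, and mdx sln+/- had 3.82, 4.04 and 3.13. That is a 3.05-fold difference (-1.61 ± 0.35), and -1.22 without mdx 1, the highest library. Both WT libraries, at 5.58 and 6.12, stood above all of mdx sln+/-. Map1a, a microtubule-associated protein, was at 6.19, 5.72 and 5.77 against 4.55, 5.15 and 5.22 (-0.92 ± 0.21), with WT at 4.53 and 4.87. Tnfrsf12a, the receptor of the cytokine TWEAK, was at 6.44, 5.65 and 5.52 against 5.04, 5.25 and 4.80 (-0.84 ± 0.24), and at -0.51 without mdx 1. The mdx sln+/- levels of these last 2 genes lay nearer to WT than the mdx levels did. Rasl11b, a small GTPase, was lower by 0.63 ± 0.15 and Arhgdib by 0.34 ± 0.08. Scaf4 (-0.35 ± 0.07), which acts at the end of transcription, P2ry2 (-0.32 ± 0.07), a receptor for extracellular nucleotides, and Pmepa1 (-0.30 ± 0.07), a TGF-beta target, were lower too. The rule that named them required no overlap. Chkb (-0.28 ± 0.06), a choline kinase gene, overlaps Cpt1b (-0.17 ± 0.07), the muscle form of carnitine palmitoyltransferase, on the same strand of chromosome 15, so reads could be shared between them.

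**Figure D2:**
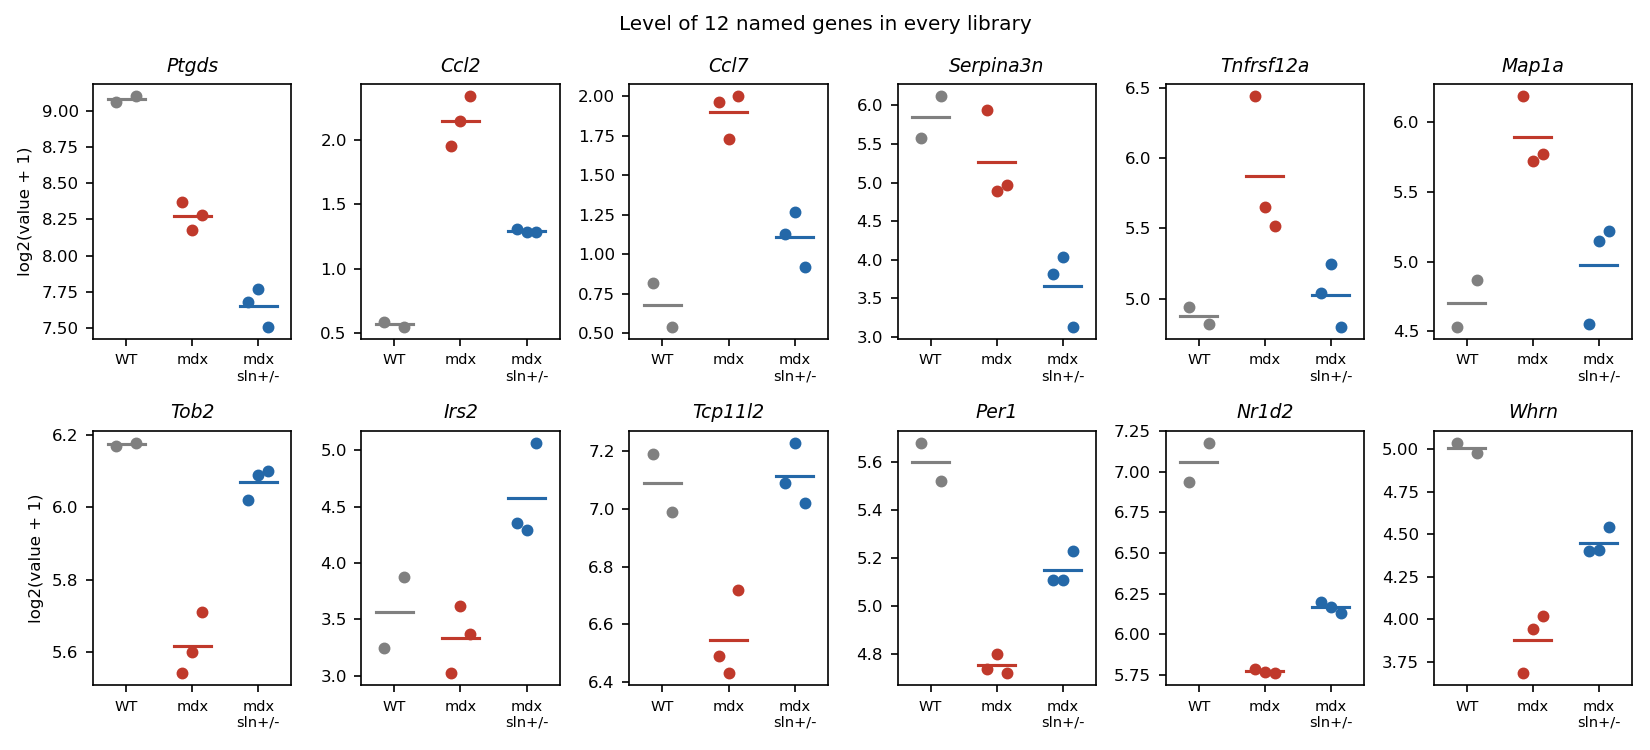
Levels (y axis, log2(value + 1), a separate scale for each gene that does not start at 0) of 12 named genes in the WT (grey), mdx (red) and mdx sln+/- (blue) libraries; each point is a library and each line a group mean. In all 12 genes the 3 mdx sln+/- libraries lie beyond the 3 mdx libraries, on the lower side for the first 6 genes and on the higher side for Tob2 to Whrn.

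Genes of calcium uptake did not part the groups, apart from Hax1. Of the 15 genes listed for the SERCA pump and its small regulators, 8 were tested. All 8 had a positive difference with the values as deposited, 6 of 8 after median-ratio scaling, and the median was 0.11 (0.07 after that scaling, 0.17 without mdx 3) against 0.031 over all genes. Pln, which encodes phospholamban, the main inhibitor of SERCA2 in ventricle, was at 11.20, 11.56 and 11.59 in mdx, and mdx sln+/- had 11.71, 11.58 and 11.82. The groups overlapped, the difference was 0.25 ± 0.14, and it was 0.11 without mdx 1, the lowest library. Atp2a2, the pump itself, was at 13.01, 13.22 and 13.30 against 13.33, 13.29 and 13.40 (0.16 ± 0.13; 0.06 without mdx 1). WT was at 11.96 and 11.82 for Pln and at 13.43 and 13.58 for Atp2a2. Hax1, whose protein binds phospholamban, was at 2.97, 2.97 and 2.99 against 3.20, 3.18 and 3.12 (0.19 ± 0.08, limma, unadjusted p = 0.0469), and it was the 1 of 8 without overlap, a smaller share than the 16.8% of all genes. After median-ratio scaling none of the 8 had an unadjusted p under 0.05. The gene of another-regulin, listed as 1810037I17Rik, differed by 0.13 ± 0.08 and S100a1, a calcium sensor that raises pump activity, by 0.09 ± 0.08. Tmem38a, a counter-ion channel, differed by 0.07 ± 0.07. The glycogen-targeting phosphatase subunit Ppp1r3a and the pump Atp2a3 of non-muscle cells differed by 0.03 ± 0.18 each, and both turned negative after median-ratio scaling.

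Of 19 tested genes of calcium storage and release, 1 had an unadjusted p under 0.05, beside 8.6% of all genes. Without overlap 1 was higher and 1 lower, beside 16.8% and 8% of all genes. Of the 19, 11 were positive and 8 negative, with a median of 0.03. That median turned to -0.01 after median-ratio scaling and to 0.00 without mdx 1. Speg (chromosome 1, 75375297 to 75432320), a kinase of the junctional membrane that acts on the release channel and the pump, was at 7.16, 7.20 and 7.14 in mdx, and mdx sln+/- had 6.87, 6.83 and 6.90. Its groups did not overlap and its difference was -0.30 ± 0.07 (limma, unadjusted p = 0.00346), between -0.32 and -0.28 with each library left out in turn. The release channel Ryr2 differed by 0.00 ± 0.11, the calcium store protein Casq2 by -0.07 ± 0.11, the anchoring proteins Trdn by 0.10 ± 0.08 and Jph2 by -0.14 ± 0.09. Canx, a chaperone, was higher by 0.13 ± 0.06 without overlap. Of 13 genes of mitochondrial calcium uptake none had an unadjusted p under 0.05 or passed the adjusted threshold in limma, and the differences ran from Mcu, the pore, at -0.07 ± 0.08 to Slc8b1, the sodium-calcium exchanger of mitochondria, at 0.17 ± 0.17. At the cell membrane, the L-type channel subunits Cacnb1 (-0.29 ± 0.11) and Cacnb3 (-0.22 ± 0.09) were the 2 of 27 genes with an unadjusted p under 0.05, both lower. In the calcineurin, NFAT and CaMKII list, Nfatc4 (-0.38 ± 0.13) was the 1 of 31. Over all genes 5.8% were higher and 2.81% lower at that threshold.

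Most genes of the cardiac stress and fetal programme, a set known from the failing heart, had a negative difference, and none passed the adjusted test. In the list of cardiac stress and fetal genes 20 of 23 were negative and 3 positive, under the deposited and the median-ratio scaling alike, and the median was -0.30 (-0.20 with the Eif2s3y level as a term). Of these, 5 (Xirp1, Fhl1, Xirp2, Timp1 and Acta1) had an unadjusted p under 0.05, all lower, where 2.81% of all genes were. Xirp1, an actin-binding repeat protein of the intercalated disc, was at 7.73, 7.72 and 7.49 in mdx, and mdx sln+/- had 7.38, 7.27 and 7.38 (-0.30 ± 0.08). Fhl1, a LIM protein that senses stretch, was at 7.15, 7.20 and 6.83 against 6.61, 6.47 and 6.75 (-0.45 ± 0.12). Xirp2 was at 9.42, 8.94 and 8.87 against 8.34, 8.68 and 8.61 (-0.53 ± 0.16; -0.34 without mdx 1). None of these 3 genes overlapped between the groups, whereas Timp1, an inhibitor of matrix proteases (-0.83 ± 0.33), and Acta1, the skeletal actin (-0.62 ± 0.25; -0.35 without mdx 1), did.

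In this list mdx 1 was the highest of the 6 libraries in 17 of the 23 members. Its median deviation from the mean of the 6 libraries was 0.47, with -0.05 and -0.01 for mdx 2 and 3 and with -0.23, 0.05 and -0.18 for the mdx sln+/- libraries. Nppb, which encodes the B-type natriuretic peptide, was at 8.30 in mdx 1 but at 7.33 and 7.37 in mdx 2 and 3, next to 7.05, 7.40 and 6.73 in mdx sln+/- (-0.61 ± 0.33; -0.24 without mdx 1 and -0.17 with the Eif2s3y level as a term). Myh7, the slow myosin of the fetal ventricle, was at 12.02 in mdx 1, at 11.28 and 11.26 in mdx 2 and 3 and at 10.90, 11.42 and 11.29 in mdx sln+/- (-0.32 ± 0.23; -0.04 without mdx 1). Ankrd1, a stretch-responsive repressor, was at 10.36, 10.16 and 9.70 against 9.60, 9.49 and 9.63, without overlap (-0.50 ± 0.25; -0.27 with the Eif2s3y level as a term). Without mdx 1 the median of the list was -0.18, with 18 of 23 members negative, and 3 members lower and 1 higher at an unadjusted p under 0.05. The part of mdx 1 in the list's difference beyond this was not tested. Against WT, a comparison that uses the same mdx libraries, the mdx mean was the higher in 18 of the 23 members and the lower in 5. Nppb, Myh7 and Ankrd1 were higher in mdx than in WT by 1.84, 1.42 and 0.74, whereas Xirp1 differed by 0.10 and Fhl1 by -0.04, and Acta1 was lower by 1.34 on the log2 scale.

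Sarcomere and membrane repair genes had more negative than positive differences. In the sarcomere and Z-disc list 25 of 36 were negative (27 after median-ratio scaling), with a median of -0.05. At an unadjusted p under 0.05, 6 were lower and 1 higher, beside 2.81% and 5.8% of all genes. The 6 were Z-disc and actin-linked proteins: Pdlim5 (9.17, 9.07 and 9.03 in mdx, 8.73, 8.83 and 8.87 in mdx sln+/-, -0.28 ± 0.07), Pdlim3 (-0.44 ± 0.16), Flnc (-0.38 ± 0.14), Pdlim1 (-0.30 ± 0.12), Myot (-0.82 ± 0.32) and Synpo2 (-0.17 ± 0.07). None of the 6 overlapped between the groups. In the whole list 10 of 36 were lower and 4 higher without overlap, beside 8% and 16.8% of all genes. Myom2, a protein of the M-band, was the 1 higher at an unadjusted p under 0.05 (0.22 ± 0.09). Without mdx 1, 3 were lower and 1 higher, without mdx sln+/- 1 there were 2 and 0, and without mdx sln+/- 3 there were 1 and 0. Myot was at -0.38, Flnc at -0.24 and Pdlim1 at -0.19 without mdx 1. Among 27 genes of membrane repair, Anxa4 (-0.26 ± 0.07), Myof (-0.58 ± 0.19) and Dysf (-0.26 ± 0.09), all of which act where membranes reseal, were lower at an unadjusted p under 0.05, and Cavin2 (0.19 ± 0.07), a caveolar coat protein, was higher. These 3 lower and 1 higher of 27 stood beside 2.81% and 5.8% of all genes. Without mdx sln+/- 1, 1 of the 27 was lower and 0 higher. In the dystrophin-associated complex, 0 of 26 genes had an unadjusted p under 0.05 and 0 passed the adjusted threshold in limma. Its median was 0.02, and -0.01 after median-ratio scaling.

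The monocyte chemokines Ccl2 and Ccl7 were lower in every mdx sln+/- library than in any mdx library, though neither passed the adjusted test. Ccl2, which draws monocytes and lies on chromosome 11 from 82035571 to 82037453 (mm10), was at 1.95, 2.15 and 2.34 in mdx, and mdx sln+/- had 1.31, 1.29 and 1.29 (-0.85 ± 0.12, limma, unadjusted p = 0.000146). Its neighbour on chromosome 11, Ccl7, was at 1.96, 1.73 and 2.00 against 1.13, 1.27 and 0.92 (-0.79 ± 0.14). For both genes all mdx sln+/- libraries lay between the mdx and the WT libraries, which were at 0.59 and 0.55 for Ccl2 and at 0.82 and 0.54 for Ccl7. Ccl11 (-0.51 ± 0.17), the eosinophil attractant, Ccl6 (-0.36 ± 0.13), which were at -0.34 and -0.23 without mdx sln+/- 3, and the macrophage growth factor Csf1 (-0.16 ± 0.06) were lower without overlap too. Without overlap 5 of the 26 chemokine and cytokine genes were lower and 0 higher, beside 8% and 16.8% of all genes. These 5 were also the members with an unadjusted p under 0.05 (2.81% of all genes were lower at that threshold). Of the 26, 17 were negative, with a median of -0.14. Without mdx 1 the median was 0.03, with 2 lower and 3 higher, without mdx sln+/- 3 there were 2 and 0, and with the Eif2s3y level as a term 2 were lower and 2 higher. Beside this, 19 of 31 macrophage markers were negative with a median of -0.04 (0.12 without mdx 1). Their summed linear level was 605, 490 and 474 in mdx and 509, 556 and 491 in mdx sln+/-, so it overlapped, and its part in the chemokine difference was not tested. In bulk tissue fewer cells of a type and less RNA per cell cannot be told apart.

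Complement genes had a like pattern, with 17 of 20 negative and a median of -0.19. At an unadjusted p under 0.05, 5 were lower and 1 higher, beside 2.81% and 5.8% of all genes. C7, a part of the membrane attack complex, was at 4.74, 3.71 and 4.88 in mdx, and mdx sln+/- had 2.86, 3.50 and 1.93, a 3.20-fold difference (-1.68 ± 0.60). It was -0.66 with the Eif2s3y level as a term, and the WT libraries, at 4.74 and 2.78, spread as widely. C4b was at 5.72, 4.97 and 4.19 against 3.99, 4.02 and 4.06 (-0.94 ± 0.37; -0.50 without mdx 1). Properdin (Cfp), which stabilises the alternative pathway's convertase, was lower by 0.42 ± 0.12, and the complement receptor subunits Itgam and Itgb2 by 0.32 ± 0.11 and 0.45 ± 0.15. Cd59a, an inhibitor of the attack complex, was the 1 higher (0.25 ± 0.09). C1qa, C1qb and C1qc, made by macrophages, differed by -0.04, -0.11 and -0.06 and overlapped. Without mdx 1 the median was -0.02, with 1 lower and none higher.

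Among fibrillar matrix genes few had an unadjusted p under 0.05. Of 61 tested, 40 were negative (46 after median-ratio scaling) with a median of -0.09, and 0.01 without mdx 1. Ltbp2, a binding protein of latent TGF-beta (-0.92 ± 0.30; -0.57 without mdx 1), the proteoglycan Vcan (-0.41 ± 0.15) and Timp1 were lower at an unadjusted p under 0.05, and Thbs2, a matricellular protein (0.22 ± 0.08), was higher. That count of 3 lower and 1 higher of 61 stood beside 2.81% and 5.8% of all genes. It became 1 and 2 without mdx 1, 0 and 0 without mdx sln+/- 1, and 8 and 3 with the Eif2s3y level as a term. Without overlap 7 were lower and 1 higher, beside 8% and 16.8% of all genes. Markers of mesothelium and valve had the lowest median of the lists with at least 6 tested members, -0.79, with 5 of 6 tested members negative, and a summed linear level of 106, 70.2 and 46.5 in mdx against 30.9, 31.2 and 32.2 in mdx sln+/-. They included Prg4, the joint and valve lubricin, at 4.42, 4.77 and 3.86 against 3.01, 2.36 and 3.16 (-1.51 ± 0.48; -2.28 with the Eif2s3y level as a term), and Efemp1, a fibulin, at 3.35, 3.27 and 3.34 against 2.77, 2.67 and 2.44 (-0.69 ± 0.13). Wt1, the defining gene of the epicardium, differed by -0.24 ± 0.20 and its groups overlapped. The 2 WT libraries were far apart too, with a summed level of these markers of 38.1 and 95 and with Prg4 at 3.25 and 5.12. The part of these cells in the matrix and complement values was not tested.

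**Figure D3:**
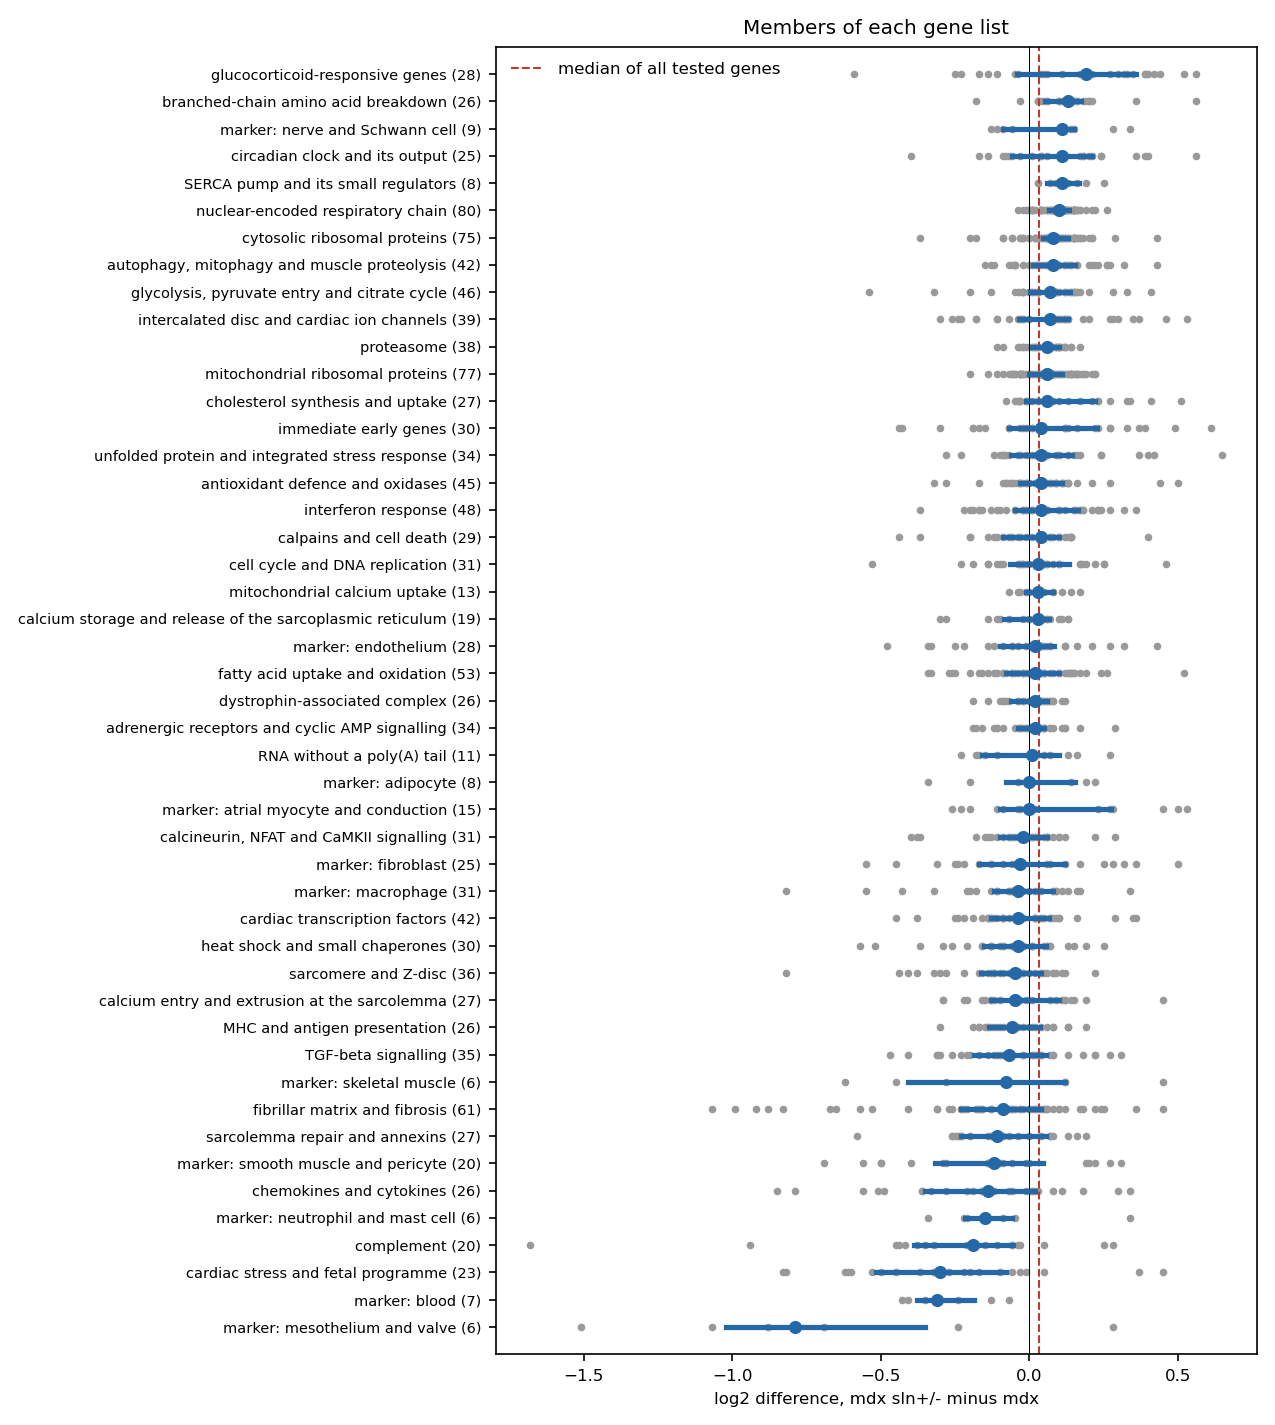
Log2 difference (mdx sln+/- minus mdx, x axis) of the tested members of each gene list with at least 6 of them, the sex-linked list left out (y axis, number tested in brackets). Grey points are genes, blue points list medians, blue bars the middle 50% of members, and the dashed line the median of all genes. The stress list lies at -0.30, the chemokine list at -0.14 and the respiratory chain at 0.10.

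The clock genes Per1, Nr1d2 and Per3 were higher in every mdx sln+/- library than in any mdx library, though none passed the adjusted test. Of 25 tested genes of the circadian clock and its output 17 were positive and 8 negative, with a median of 0.11 (0.07 after median-ratio scaling, 0.05 without mdx 1). Per1, a core repressor of the clock, was at 4.74, 4.80 and 4.72 in mdx, and mdx sln+/- had 5.11, 5.11 and 5.23 (0.40 ± 0.07, limma, unadjusted p = 0.000773). Nr1d2, the nuclear receptor REV-ERB beta, was at 5.79, 5.77 and 5.76 against 6.20, 6.17 and 6.13 (0.39 ± 0.07, limma, unadjusted p = 0.000788). Per3, a paralogue of Per1, was at 3.06, 3.34 and 3.21 against 3.56, 3.42 and 3.71 (0.36 ± 0.13; 0.18 with the Eif2s3y level as a term). For Per1 and Nr1d2 all mdx sln+/- libraries lay below both WT libraries, which were at 5.68 and 5.52 and at 6.94 and 7.18. The same mdx libraries were lower than WT by 0.85 in Per1, 1.29 in Nr1d2 and 1.10 in Per3. Of the 25 tested, 4 were higher without overlap and 0 lower, beside 16.8% and 8% of all genes. Per1, Nr1d2 and Per3 were the 3 of 25 higher at an unadjusted p under 0.05 (5.8% of all genes were), and 1 was lower (2.81% of all genes were). Without mdx 1 there were 3 higher and 0 lower at that threshold. Bhlhe40, a repressor, was lower by 0.40 ± 0.17 with overlap, and at -0.23 without mdx 1. Nr1d1 (REV-ERB alpha), at 6.40, 5.27 and 4.81 against 5.83, 5.93 and 5.35, overlapped (0.21 ± 0.41), and the output factor Dbp differed by 0.24 ± 0.17 (0.04 without mdx 3). The labels do not give the time of day at which tissue was taken.

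The promoters of these 3 genes are shown because they are the clock genes whose groups were apart at that threshold. Each is the window of 250 bases before a RefSeq transcript start (GRCm38.p6), with capitals for the E-box CACGTG, bound by CLOCK and its partner, the D-box TTATGTAA or TTATGCAA, bound by DBP, TEF and HLF, and the half-site AGGTCA, bound by ROR and REV-ERB receptors. Both strands were searched, so AGGTCA can appear as TGACCT, and no match overlapped another. In the GENCODE annotation of that build the whole Per1 window of 250 bases lies inside a longer Per1 transcript that starts upstream, with 1 base in an exon. Of the Nr1d2 window 21 bases lie in an exon of Nr1d2, and of the Per3 window 0 lie in a Per3 transcript.
Per1, chr11:69098699-69098948, plus strand: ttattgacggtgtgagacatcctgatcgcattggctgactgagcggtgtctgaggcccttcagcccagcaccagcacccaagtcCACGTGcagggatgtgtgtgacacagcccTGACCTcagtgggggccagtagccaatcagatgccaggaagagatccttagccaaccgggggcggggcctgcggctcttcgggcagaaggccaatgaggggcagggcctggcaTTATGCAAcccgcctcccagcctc
Per3, chr4:151044666-151044915, minus strand: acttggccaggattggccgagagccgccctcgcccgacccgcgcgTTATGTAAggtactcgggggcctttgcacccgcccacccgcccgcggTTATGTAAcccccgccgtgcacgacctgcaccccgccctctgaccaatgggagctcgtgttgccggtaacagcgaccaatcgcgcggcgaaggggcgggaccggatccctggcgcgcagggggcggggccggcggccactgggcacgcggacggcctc
Nr1d2, chr14:18239107-18239356, minus strand: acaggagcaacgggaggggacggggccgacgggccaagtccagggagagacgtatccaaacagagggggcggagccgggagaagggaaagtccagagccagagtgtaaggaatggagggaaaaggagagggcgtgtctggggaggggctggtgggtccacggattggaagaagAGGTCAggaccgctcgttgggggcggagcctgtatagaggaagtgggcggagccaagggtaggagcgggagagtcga

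The Per1 window held 1 E-box, 1 D-box and 1 half-site, the Per3 window 2 D-boxes and the Nr1d2 window 1 half-site. Per1 has a second RefSeq start, whose window held 0 of the 3 motifs. Among 32851 promoter windows of this length, 6.02% held the E-box, 1.5% the D-box and 14% the half-site. RefSeq windows were at hand for 19 of the 25 clock genes tested, 26 windows in all, of which 7 held the E-box, 2 the D-box and 4 the half-site. A match describes the letters and shows no binding.

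Genes that respond to glucocorticoids had the highest median of the lists with at least 6 tested members, 0.19 (20 of 28 positive), but the libraries of a group did not move together. Their median deviation was -0.20, -0.31 and 0.25 for the mdx libraries and 0.17, 0.33 and -0.24 for the mdx sln+/- libraries, so both groups held high and low libraries. The list median ran from 0.08 without mdx 2 to 0.37 without mdx 3. Only Per1 and Arrdc3, an arrestin-domain protein (0.44 ± 0.14), had an unadjusted p under 0.05, beside 8.6% of all genes. Among 30 immediate early genes, Csrnp1 was at 3.59, 3.42 and 3.20 against 3.91, 3.88 and 3.90 (0.49 ± 0.11) and Fosl2, a member of the AP-1 family, was higher by 0.39 ± 0.09. Ier5l (-0.44 ± 0.18) and Ier3 (-0.30 ± 0.13), a stress-induced survival gene, were lower at an unadjusted p under 0.05. At that threshold 2 of the 30 were higher and 2 lower, beside 5.8% and 2.81% of all genes. Without mdx 1 there were 3 higher and 0 lower, and the list median was 0.15 in place of 0.04.

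**Figure D4:**
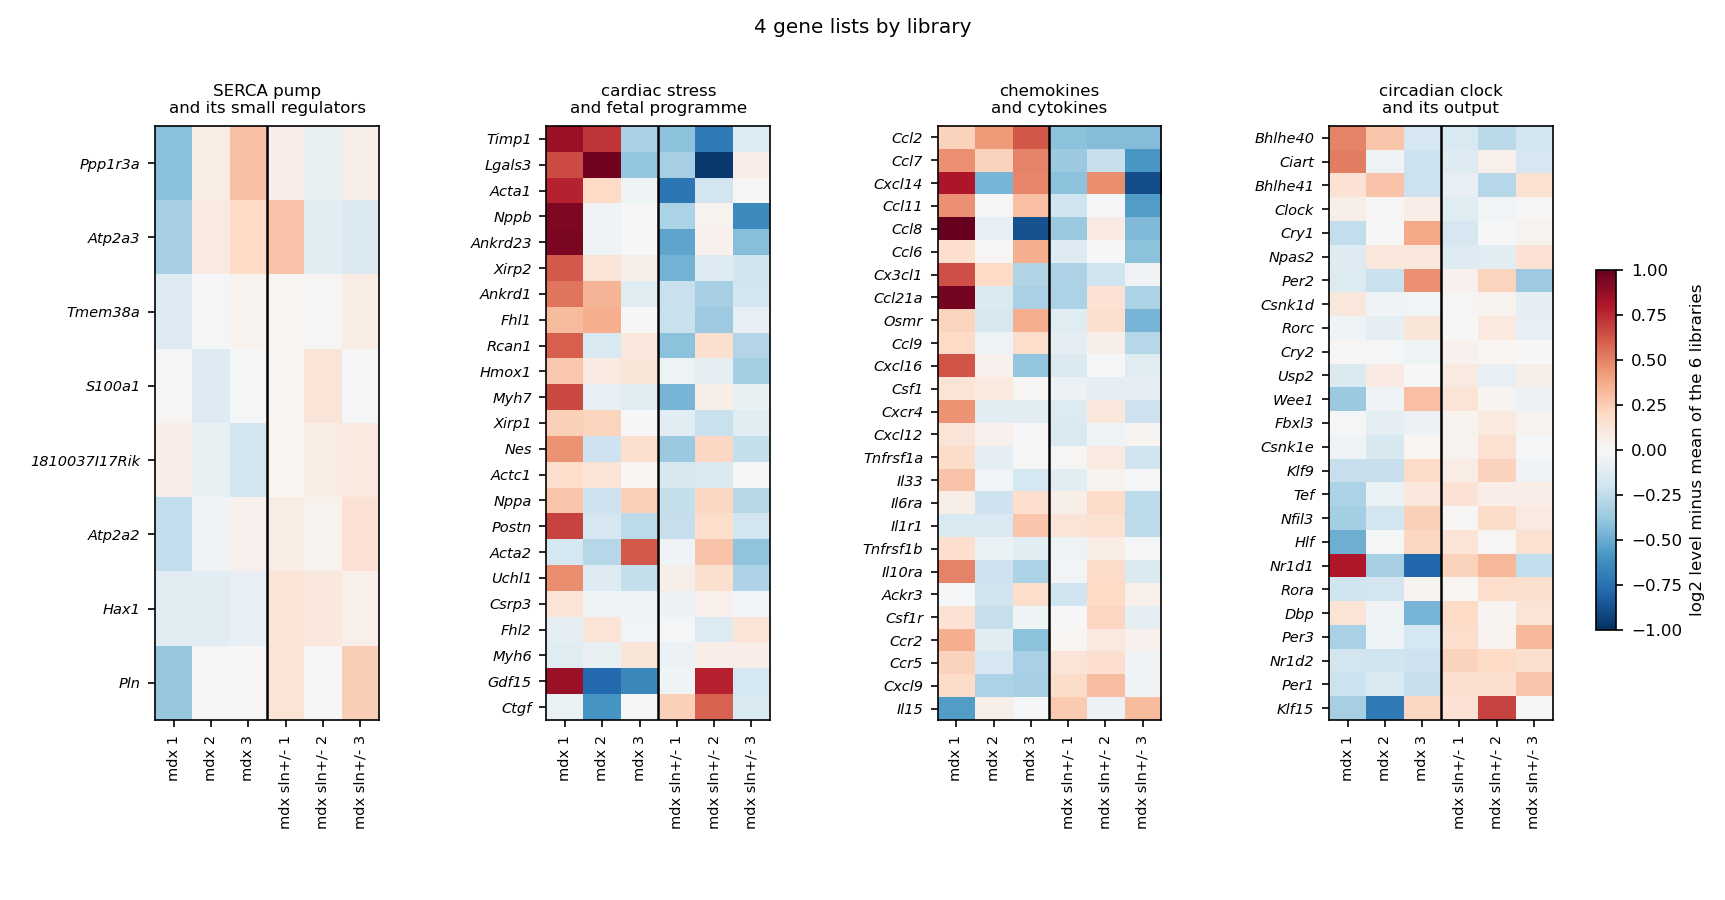
Level of each tested member of 4 gene lists in the 6 libraries, as the log2 level minus the mean of the 6 (colour, red above and blue below the mean, cut at 1); columns are libraries and the black line parts mdx from mdx sln+/-. In the stress and chemokine lists mdx 1 is the reddest column, while Per1, Nr1d2 and Ccl2 part all libraries of one group from all of the other.

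Genes of energy metabolism and proteolysis had more positive than negative differences, as did all tested genes (8313 of 13783 positive). Nuclear-encoded subunits of the respiratory chain were positive in 75 of 80 (68 of 80 after median-ratio scaling), with a median of 0.10 (0.07 after that scaling, 0.06 without mdx 1). In 32 of the 80 every mdx sln+/- library exceeded every mdx library, and in 0 the reverse held, beside 16.8% and 8% of all genes. After median-ratio scaling these counts were 17 and 1, beside 1626 and 1656 of all 13783 genes. The differences were small, at most 0.26 ± 0.07 for Ndufa4 (6.60, 6.69 and 6.67 in mdx, 6.86, 6.88 and 6.99 in mdx sln+/-), a subunit of complex IV. The columns of the same libraries differed here, and Ndufa4 was at 0.11 with the r1 columns alone and at 0.47 with the r2 columns alone. Ndufa3, of complex I, was higher by 0.21 ± 0.07 (0.12 and 0.29 with either column alone), and 6 of the 80 were higher at an unadjusted p under 0.05, a share near that of all genes (5.8%). That count was 2 without mdx sln+/- 1, 2 without mdx sln+/- 3 and 19 without mdx 3.

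In the autophagy and proteolysis list 33 of 42 were positive (26 after median-ratio scaling), with 7 higher (5.8% of all genes were) and 0 lower at an unadjusted p under 0.05 and a median of 0.08. Fbxo32, the atrophy ubiquitin ligase atrogin, was at 7.05, 6.90 and 7.07 in mdx, and mdx sln+/- had 7.31, 7.55 and 7.46 (0.43 ± 0.10). Ulk1, the kinase that starts autophagy, was at 6.10, 6.09 and 6.14 against 6.33, 6.36 and 6.33 (0.23 ± 0.05). Gabarap (0.21 ± 0.06), Gabarapl1 (0.32 ± 0.12), both of the autophagosome membrane, the mitophagy receptor Bnip3l (0.26 ± 0.10) and the muscle ubiquitin ligases Trim63 (0.26 ± 0.10) and Fbxo30 (0.20 ± 0.08) were the others. All 7 were without overlap. In the whole list 18 of 42 were higher and 2 lower without overlap, beside 16.8% and 8% of all genes. After median-ratio scaling these were 9 and 4, beside 1626 and 1656 of all 13783 genes. At an unadjusted p under 0.05 there were 6 higher and 0 lower without mdx 1, and 4 higher and 2 lower after median-ratio scaling.

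Breakdown of branched-chain amino acids was positive in 24 of 26 genes, with a median of 0.13 (0.09 after median-ratio scaling, 0.04 without mdx 1). Bckdhb, a subunit of the rate-setting dehydrogenase, was at 4.63, 4.97 and 5.10 in mdx, and mdx sln+/- had 5.28, 5.19 and 5.29 (0.36 ± 0.12; 0.20 without mdx 1), and 5 genes were higher at an unadjusted p under 0.05, but 1 without mdx 1 and 0 without mdx sln+/- 1. Over all genes 5.8% were higher and 2.81% lower at that threshold. Of 27 genes of cholesterol synthesis and uptake 6 were higher and 0 lower there, with a median of 0.06. Insig1, which holds back the synthesis programme when sterols are high, was at 3.52, 3.49 and 3.90 against 4.07, 4.30 and 4.09 (0.51 ± 0.14). The enzymes Msmo1 (0.41 ± 0.11), Fdps (0.33 ± 0.11), Fdft1 (0.34 ± 0.11) and Cyp51 (0.27 ± 0.09) and the exporter Abca1 (0.23 ± 0.09) were the others, all without overlap. At that threshold 3 of the 27 were higher without mdx 1 and 2 without mdx sln+/- 1. In the whole list 7 of 27 were higher and 0 lower without overlap, beside 16.8% and 8% of all genes. Fatty acid uptake and oxidation had a median of 0.02 over 53 genes, of which 30 were positive and 23 negative. After median-ratio scaling the median was -0.02, with 21 positive and 32 negative. At an unadjusted p under 0.05 Acss1, which activates acetate in mitochondria, was higher (0.26 ± 0.08) and Cpt1b lower. With the Eif2s3y level as a term 1 was higher and 7 lower, and without mdx 3 there were 6 and 0.

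**Figure D5:**
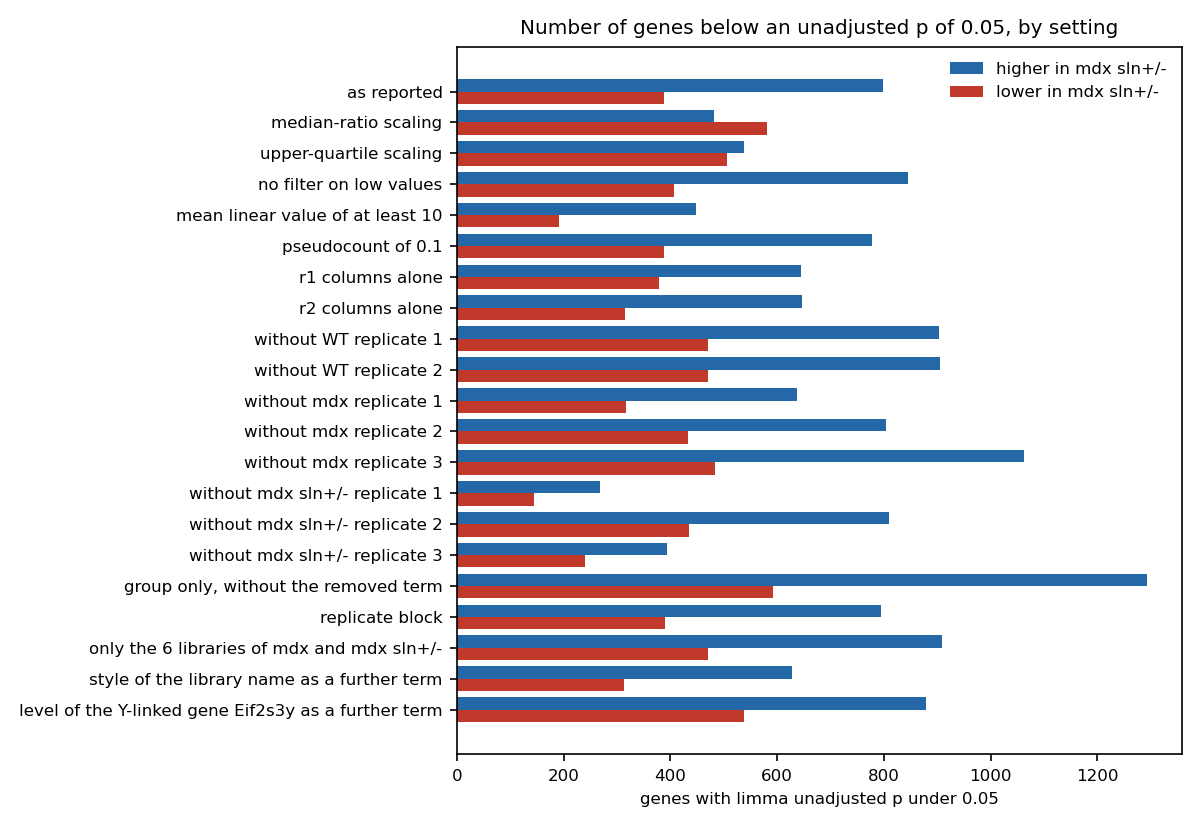
Number of genes with an unadjusted p under 0.05 in limma (x axis, from 0), higher (blue) or lower (red) in mdx sln+/-, for the values as reported and 20 other settings of processing, model or libraries (y axis). The as-reported bars are 799 and 387, median-ratio scaling gives more lower than higher genes (482 and 581), and leaving out mdx sln+/- 1 gives the shortest bars (267 and 145).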

How the data were processed

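The deposited log2 values, 1 per transcript, came in 16 columns, of which r1 and r2 belong to the same library (0 unmapped). Per the submitters' processing notes, the authors used STAR 2.6.1, mm10, Partek and limma. What r1 and r2 are, and whether transcript length was divided out, is not given in the sources used here, so levels are not compared between genes, and the depth and its precision are unknown. Both columns were averaged per library, turned back to linear values, summed per gene and set to log2(value + 1). Genes with at least 1 in at least 2 libraries were tested, and 795 were left out.

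The mean of the libraries mdx 2 and mdx sln+/- 2 equalled, in each transcript, the mean of the other 4 libraries of both groups (largest difference 5.12e-05; SD over transcripts 1.77e-06, against 0.127 to 0.199 for other pairings), so that contrast had been removed before deposit. What it stands for is not given in the sources used here. limma 3.58.1 in R 4.3.3 (trend, Benjamini-Hochberg, threshold 0.05) was therefore fitted over all 8 libraries with group and a term for those 2 libraries, leaving 4 residual degrees of freedom. The term was dropped where mdx 2 or mdx sln+/- 2 was left out.

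Named genes were Dmd and the SERCA list, then, among protein-coding genes off the Y chromosome with a mean level of at least 3, no overlap and no predicted-gene symbol, the 10 highest and 10 lowest by p and the 6 largest differences each way, then 2 genes per list, those of smallest p; other genes were named after their values were seen. The comparison, members and lists were chosen with earlier results of these data known. Python 3.11.15 with pandas 2.3.3 and matplotlib 3.10.9 prepared values and figures.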

Additional observations from a re-analysis of the deposited data

How the results depend on the processing

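No gene passed the adjusted threshold in limma under any of the 20 alternatives; the smallest adjusted p ran from 0.117 with group as the only term to 1 without mdx sln+/- 1. At an unadjusted p under 0.05, median-ratio scaling gave 482 higher and 581 lower genes, a mean linear value of at least 10, which tests fewer genes (7700), gave 448 and 191, and group alone gave 1294 and 592. With each library left out in turn, the counts ran from 267 to 1062 higher and from 145 to 484 lower, lowest without mdx sln+/- 1 and highest without mdx 3. Genes without overlap numbered 1332 higher and 560 lower at a mean of at least 10, 1656 lower with median-ratio scaling, and between 2312 and 3847 higher and 1102 and 1901 lower with a library left out, where fewer libraries have to part. Of the 1186 genes below an unadjusted p of 0.05, 397 stayed below it without mdx sln+/- 1, 508 without mdx sln+/- 3 and 653 with the Eif2s3y level as a term, an alternative chosen after seeing the data; 0 turned sign in these 3 settings.

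Among the genes picked by the naming rule 4 turned sign. Other genes named in the text turned sign too. With a library left out Nr1d1 (0.21) lay between -0.18 and 0.73, and C1qa (-0.04) between -0.16 and 0.12. The 4 were as follows. Atp2a3 (0.03) was at -0.01 with median-ratio scaling and -0.06 with the Eif2s3y term, and between -0.16 and 0.15 with a library left out. Ppp1r3a (0.03) was at -0.01 and -0.10 under the same settings and between -0.20 and 0.20. Alas2 (-0.43) lay between -0.79 and 0.04 and Ighm (0.16) between -0.03 and 0.35; the cause was not tested.

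The deviations of same-numbered libraries of both groups had correlations of -0.199, -0.996 and -0.287 over 8867 genes. The removed contrast fixes the second and ties the other two to each other, so whether the numbers mark pairs cannot be told from these values, and the labels do not say so. A replicate block gave 794 higher and 390 lower genes and 0 called. Without counts, the precision that depth would give cannot be stated.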

Other observations

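Immune genes that were not among the groups above moved with the libraries and terms used. Of 26 genes of MHC and antigen presentation 9 were positive and 17 negative over all 6 libraries, with a median of -0.06, 0 at an unadjusted p under 0.05 and 0 called in limma. The median deviation of the list from the mean of the 6 libraries was 0.64 for mdx 1, -0.16 and -0.33 for mdx 2 and 3, and -0.05, 0.18 and -0.21 for the mdx sln+/- libraries. Without mdx 1 all 26 were positive, 10 of them at an unadjusted p under 0.05, and the median was 0.24. In that setting 638 of all 13783 genes were higher at that threshold. The sign also turned without mdx sln+/- 3 (17 of 26 positive, median 0.03) and with the Eif2s3y level as a term (17 of 26, median 0.05). Without mdx 1 the interferon list moved the same way, from 30 of 48 positive with a median of 0.04 to 44 of 48 positive with a median of 0.19. At an unadjusted p under 0.05, 9 of the 48 were then higher, beside the same 638 of all 13783 genes. Gbp5, an interferon-induced GTPase, was at 2.90, 2.71 and 2.63 in mdx, and mdx sln+/- had 3.00, 3.02 and 2.93 (0.23 ± 0.10), and Ifi27 was lower by 0.37 ± 0.14. Kit, a mast cell gene, was at 1.88, 1.44 and 1.52 against 1.82, 2.12 and 1.92 (0.34 ± 0.16), with overlap. It was the 1 positive member of the 6 tested neutrophil and mast cell markers. The other 5 were negative, and the list median was -0.15 (0.05 without mdx 1).

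Other cell type markers gave these values. The blood list had 7 of 7 tested members negative, and its summed linear level was 291, 477 and 915 in mdx, against 549, 436 and 296, so the groups overlapped, and the median of -0.31 ran from -0.70 without mdx 1 to 0.05 without mdx 3, and was -0.06 with the Eif2s3y level as a term. Endothelial markers had a median of 0.02 over 28 genes, with Npr3 lower by 0.33 ± 0.09 and without overlap. With the Eif2s3y level as a term their median was 0.16. At an unadjusted p under 0.05, 5 were then higher and 1 lower, beside 879 and 538 of all 13783 genes. Smooth muscle and pericyte markers were negative in 15 of 20 with a median of -0.12 (0.02 with the Eif2s3y level as a term), while Abcc9, a potassium channel subunit, was higher by 0.27 ± 0.10. Among fibroblast markers Smoc2 was at 5.31, 5.31 and 5.32 in mdx, and mdx sln+/- had 5.66, 5.83 and 5.97 (0.50 ± 0.11), while the median of the 25 was -0.03. Of 15 markers of atrial myocytes and conduction 8 were positive and 7 negative. Their median deviation from the mean of the 6 libraries was -0.21, 0.07 and 0.03 in mdx and 0.01, -0.04 and 0.22 in mdx sln+/-. Cytosolic ribosomal protein genes were positive in 62 of 75, with 8 higher (5.8% of all genes were) and 0 lower at an unadjusted p under 0.05. There were 1 higher and 1 lower after median-ratio scaling and 0 of either without mdx sln+/- 1.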
